A study of Mus musculus with 10 samples.

Results

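The genes described here are 4 components of insulin, IGF, FOXO and mTOR signaling, Irs2, Igfbp4, Foxo3 and Akt1s1, out of 230 genes in the deposited table. They were taken by their symbols, and each symbol matched 1 row. The libraries come from MIN6N8 cells, a mouse insulinoma line that secretes insulin and is used as a model of the pancreatic beta-cell. For 4 h the cells received either PBS, the vehicle (5 libraries), or IL-22 at 100 ng/mL as the labels give it (5 libraries), both in medium with 5.5 mM glucose. No genotype, agent or age differs between the groups apart from the cytokine. MIN6N8 is an immortal line, and the labels do not say whether the 5 libraries of a group are separate cultures, so p-values measure only the spread between these libraries, which may be technical. Of 14 beta-cell markers, 5 are listed (Iapp, Pdx1, Mafa, Nkx6-1 and Slc2a2), with a summed expression of 8924 to 9484 CPM (reads per gene scaled to a common library total) with PBS and 8497 to 9285 CPM with IL-22. These markers did not move together, with log2 fold changes of 0.58 for Mafa, 0.26 for Nkx6-1 and 0.16 for Pdx1, and of -0.17 for Slc2a2 and -0.07 for Iapp (IL-22 over PBS). Neither insulin gene is listed, nor is any of 19 markers of other pancreatic, immune or stromal cells, so the level of these genes could not be read here.

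Insulin and the insulin-like growth factors (IGFs) bind related receptor tyrosine kinases, which phosphorylate adaptor proteins that recruit PI3-kinase and so activate the kinase AKT. AKT phosphorylates FOXO transcription factors, which then leave the nucleus, and it releases the growth-promoting kinase complex mTORC1 from inhibitors. Igfbp4 encodes a secreted protein that binds IGFs outside the cell and mostly restrains them. Irs2 encodes an adaptor downstream of both receptors and is required for beta-cell growth and survival in mice. Foxo3 encodes a FOXO factor, and Akt1s1 encodes PRAS40, an AKT substrate that inhibits mTORC1 while unphosphorylated.

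The table lists only genes with a false discovery rate (FDR) under 0.05 in the comparison that was deposited with it, in which 16308 genes were tested. All 4 genes were thus preselected by the contrast examined here, and the tests on them are not independent evidence of a change. Libraries held between 23685882 and 35785875 counted reads, and listed genes took 2.87% to 3.11% of each.

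The promoters of Irs2 and Igfbp4 are shown, the first because it was the only one of the 4 with an insulin response core, and the second for the most abundant of the 4 transcripts. Each is the window from 250 bases before to 50 bases after the RefSeq start site on GRCm38.p6, read 5′ to 3′ on the strand of the gene, with matches in capitals. All 4 genes had a promoter in the RefSeq table. The motifs, searched on both strands, were the STAT element TTCNNNGAA, the FOXO consensus GTAAACA, the core of the insulin response element CAAAACA, the E-box CACGTG, the TATA box TATAAA, the CCAAT box, the GC box GGGCGG and the AP-1 element TGAGTCA.

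Irs2, chr8:11008880-11009179, minus strand: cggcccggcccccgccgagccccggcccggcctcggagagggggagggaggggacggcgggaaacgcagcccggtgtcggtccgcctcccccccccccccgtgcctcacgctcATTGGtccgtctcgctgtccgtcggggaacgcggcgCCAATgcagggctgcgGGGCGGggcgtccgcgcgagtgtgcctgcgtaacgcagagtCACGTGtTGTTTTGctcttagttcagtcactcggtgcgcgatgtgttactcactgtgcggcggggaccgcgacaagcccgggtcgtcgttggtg

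Igfbp4, chr11:99040994-99041293, plus strand: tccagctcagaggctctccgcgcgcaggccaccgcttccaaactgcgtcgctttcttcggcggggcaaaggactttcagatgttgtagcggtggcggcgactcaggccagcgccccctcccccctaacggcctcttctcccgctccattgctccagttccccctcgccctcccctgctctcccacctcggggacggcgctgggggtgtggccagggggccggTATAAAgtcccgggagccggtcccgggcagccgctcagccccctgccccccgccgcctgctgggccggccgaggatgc

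In the Irs2 promoter, the E-box began 44 bases before the start site and was followed, 37 bases before it, by the core of the insulin response element, the sequence through which FOXO factors act on insulin-repressed genes. Of 32851 promoters of the same length, 7.15% held the E-box and 6.28% held the insulin response core. The same window held a CCAAT box on each strand, found in 37.4% of promoters, and a GC box, found in 35.7%. In the Igfbp4 promoter, the single match was a TATA box 28 bases before the start site, and 13.6% of promoters held that motif. The Foxo3 window (chr10:42276646-42276945, minus strand) held 5 GC boxes and the Akt1s1 window (chr7:44850122-44850421, plus strand) held 2, with no match to the other motifs. None of the 4 windows matched the STAT element, present in 8.3% of promoters, the FOXO consensus, present in 3.65%, or the AP-1 element, present in 5.2%. The 4 windows were rich in G and C, at 72% for Irs2, 71.3% for Igfbp4, 75% for Foxo3 and 67.7% for Akt1s1, against a median of 52.7% over all promoters. These windows follow the RefSeq start sites, which lie 471 bases from the GENCODE gene start for Irs2, 60 for Foxo3 and 1381 for Akt1s1.

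Scaled to the library totals, mean expression was higher in the IL-22 libraries for all 4 genes, by 8.63% for Igfbp4, 15.6% for Irs2, 16.9% for Foxo3 and 17.6% for Akt1s1, although Igfbp4 turned lower when factors were taken from the listed genes (TMM, or the size factors of DESeq2). In edgeR's quasi-likelihood test on counts, with Benjamini-Hochberg adjustment over the 230 rows, each of them passed the threshold of 0.01. That is 4 of 4, while 81.3% of all listed genes were called higher and 13.5% lower in the same fit, so the count is near what the table holds in general. The median log2 fold change of the 4 genes was 0.22, beside 0.21 over all 230 genes. When the adjustment ran over 16308 genes and p-values outside the table were set above those in it, edgeR called 0 of the 4, and 4.78% of the listed genes were called higher. All 4 had an unadjusted p-value under 0.05. With the same adjustment, limma-voom called 0 of the 4 and DESeq2 called 1, Irs2 (adjusted p = 0.00956). Of the 230 listed genes, voom then called 14 higher and 0 lower, and DESeq2 called 55 higher and 4 lower. Both fits were chosen after the data were seen.

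Igfbp4, the IGF-binding protein, was the most abundant of the 4. On GRCm38, the build also named mm10, it occupies chromosome 11 from 99041244 to 99054392 on the plus strand, and overlaps no other annotated gene. The PBS libraries 1 to 5 measured 618, 595, 635, 632 and 668 CPM, and the IL-22 libraries 1 to 5 measured 702, 687, 695, 659 and 676 CPM. The groups overlapped, since PBS library 5 stood above IL-22 library 4, while the other 4 IL-22 libraries were above all PBS libraries. PBS libraries averaged 629.6 ± 26.5 CPM (SD, n = 5), and the IL-22 mean was 684 ± 16.9 (SD, n = 5). The log2 fold change was 0.12 (SE 0.0313), or -0.086 with TMM, and the former had an edgeR adjusted p = 0.0033 within the table and 0.234 across 16308 genes. An exact permutation test of the mean log2 CPM gave p = 0.0159 (two-sided, 0.0212 when adjusted over the 230 genes), with a 95% interval of the difference from 0.05 to 0.19. By this test 225 of the 230 genes, all selected by the same contrast, were below 0.05 after adjustment. The exact p-values and intervals of the 4 genes are therefore descriptive. With at least 14103 reads per library, counting error alone amounts to 0.732% of the PBS mean, and the libraries varied by 4.2%.

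Irs2, the adaptor of the insulin and IGF-1 receptors, lies on chromosome 8 from 10984681 to 11008458 on the minus strand. A noncoding transcript on the opposite strand, 9530052E02Rik, shares 162 exon bases with it, or 2.56% of its exon bases. The PBS libraries 1 to 5 measured 38.4, 37.7, 40.4, 36.8 and 41.9 CPM. With IL-22, libraries 1 to 5 measured 46.0, 43.3, 44.1, 46.0 and 46.3 CPM. All 5 IL-22 libraries were above all 5 PBS libraries. Mean expression was 39.0 ± 2.08 CPM in PBS libraries (SD, n = 5) and 45.1 ± 1.35 in IL-22 libraries (SD, n = 5). The difference on the log2 scale was 0.21 (SE 0.0482), at an edgeR adjusted p = 0.00213 within the table and 0.151 across 16308 genes. The exact permutation test gave p = 0.00794 (two-sided, the smallest that 5 against 5 allow, and 0.0151 adjusted over the 230 genes), with an interval from 0.12 to 0.30. The IL-22 libraries varied by 2.99%, close to the 2.81% that counting error gives, and the PBS libraries varied by 5.32%.

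Foxo3, the FOXO transcription factor, lies on chromosome 10 from 42181841 to 42276755 on the minus strand and overlaps no annotated gene. It was the least abundant of the 4, with 494 to 800 reads in the PBS libraries and 700 to 761 in the IL-22 libraries. The PBS libraries 1 to 5 measured 22.4, 20.9, 22.2, 22.3 and 23.7 CPM, and the IL-22 libraries measured 24.9, 27.2, 26.2, 26.3 and 25.6 CPM. The groups did not overlap, and PBS library 2, the shallowest library, was the lowest of the 10. PBS libraries averaged 22.3 ± 0.992 CPM (SD, n = 5), against 26.0 ± 0.871 (SD, n = 5) in IL-22 libraries. On the log2 scale they differed by 0.22 (SE 0.0557), at an edgeR adjusted p = 0.00283 within the table and 0.2 across 16308 genes. The exact permutation test gave p = 0.00794 (two-sided, 0.0151 adjusted over the 230 genes), with an interval from 0.14 to 0.31.

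Akt1s1, which encodes the mTORC1 inhibitor PRAS40, had the widest spread of the 4. It lies on chromosome 7 from 44848991 to 44855421 on the plus strand. The coding gene Tbc1d17 on the opposite strand shares 89 of its exon bases (2.9%), and the microRNA gene Mir707 on the same strand shares 73 (2.38%). The libraries were made with a stranded kit, but whether the counting used strand is not given in the sources used here. The PBS libraries 1 to 5 measured 35.3, 37.5, 41.9, 41.0 and 46.5 CPM, and the IL-22 libraries measured 50.1, 45.4, 46.0, 45.2 and 51.2 CPM. PBS library 5 was above IL-22 libraries 2, 3 and 4, so the groups overlapped, although all 5 IL-22 libraries exceeded the PBS median. Mean values were 40.4 ± 4.3 CPM under PBS (SD, n = 5) and 47.6 ± 2.84 under IL-22 (SD, n = 5). The log2 fold change of 0.23 (SE 0.068) had an edgeR adjusted p = 0.00477 within the table and 0.339 across 16308 genes. The exact permutation test gave p = 0.0317 (two-sided, 0.0335 adjusted over the 230 genes), with an interval from 0.05 to 0.41. PBS libraries varied by 10.6% where counting error gives 2.9%. When either PBS library 1 or 2, or IL-22 library 1 or 5, was left out, the edgeR adjusted p-value over the listed genes rose to between 0.011 and 0.0143. Its log2 fold change was then between 0.188 and 0.215, and without PBS library 5 it was 0.29.

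**Figure D1:**
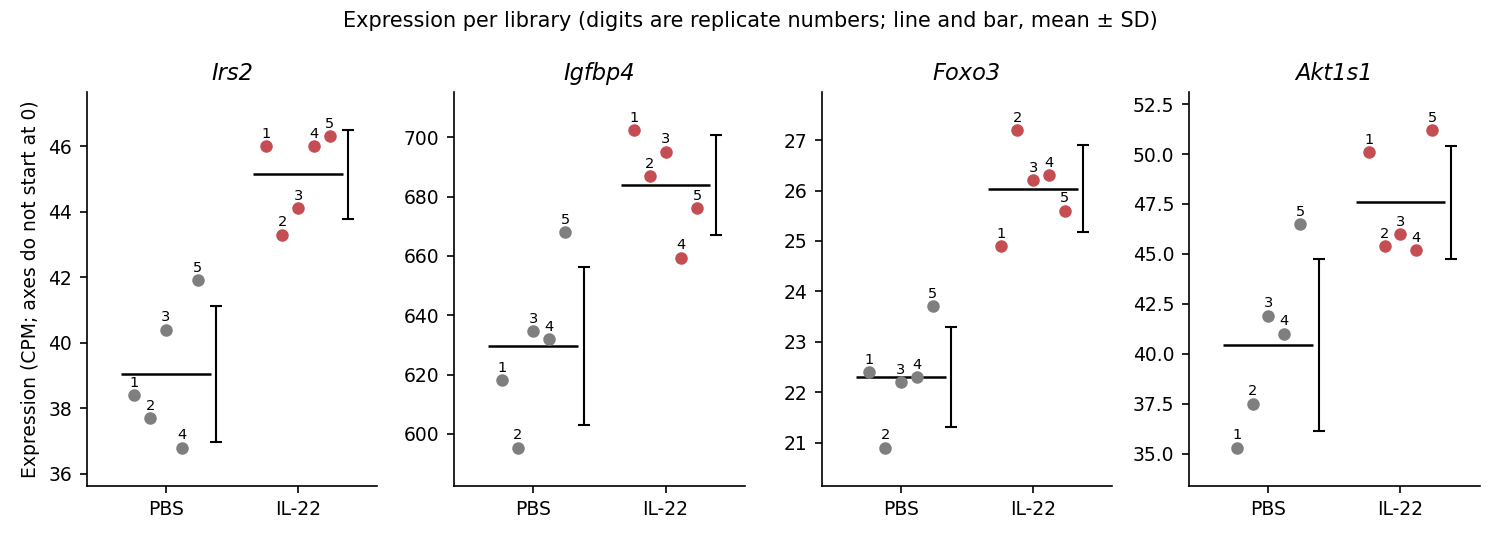
Expression in CPM (vertical axis, a separate scale for each gene that does not start at 0) of Irs2, Igfbp4, Foxo3 and Akt1s1 in each PBS and IL-22 library, with the replicate number beside each point and the mean ± SD of 5 libraries as line and bar. The groups are apart in Irs2 and Foxo3 and overlap in Igfbp4 and Akt1s1, and PBS library 5 is the highest PBS library for each gene.

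Groups without overlap were seen in 2 of the 4 genes, Irs2 and Foxo3, where 46.5% of all listed genes had each IL-22 library above each PBS library. PBS library 5 was the highest PBS library in all 4 genes, and it was the highest for 50.9% of the 230 genes. In bulk libraries such as these, a change in the share of cells that express a gene and a change in RNA per cell cannot be told apart.

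The genes differ in how abundant their transcripts are per length. Expressed as CPM per kilobase of annotated exons, the PBS means were 142.6 ± 5.99 for Igfbp4, 13.2 ± 1.4 for Akt1s1, 6.17 ± 0.328 for Irs2 and 2.94 ± 0.131 for Foxo3 (SD, n = 5). With IL-22, the levels per kilobase were 154.9 ± 3.82, 15.5 ± 0.925, 7.14 ± 0.213 and 3.44 ± 0.115 in the same order (SD, n = 5). Each neighbour in this order was separated from the next by far more than the spread over libraries, in both groups. By mean CPM over all libraries, without length, Igfbp4 ranked 3 of the 230 listed genes, Akt1s1 135, Irs2 139 and Foxo3 175.

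The size of the response was then compared between the 4 genes by the log2 ratio of their counts within each library, which does not depend on how libraries are scaled. Of 6 pairs, the 3 without Igfbp4 had differences of at most 0.03 between the groups (0.01 for Akt1s1 over Foxo3, with an interval from -0.17 to 0.19, 0.03 for Akt1s1 over Irs2, from -0.10 to 0.17, and 0.02 for Foxo3 over Irs2, from -0.09 to 0.13). These intervals do not show that the responses were equal. The log2 ratio of Foxo3 to Igfbp4 was -4.79, -4.84, -4.83, -4.83 and -4.82 in PBS libraries 1 to 5 and -4.82, -4.66, -4.73, -4.65 and -4.72 in IL-22 libraries 1 to 5. IL-22 library 1 lay among the PBS libraries, and the other 4 IL-22 libraries lay above them. The mean ratio was higher with IL-22 by 0.11 (SE 0.0321, interval from 0.03 to 0.18, exact permutation test, two-sided, p = 0.0159, and 0.0952 adjusted over the 6 pairs). The ratio of Irs2 to Igfbp4 differed by 0.09 (SE 0.0374, exact permutation p = 0.0397, adjusted 0.119) and that of Akt1s1 to Igfbp4 by 0.12 (SE 0.0599, exact permutation p = 0.0794, adjusted 0.159), the latter falling to 0.0774 without PBS library 1. No pair passed 0.05 after adjustment.

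**Figure D2:**
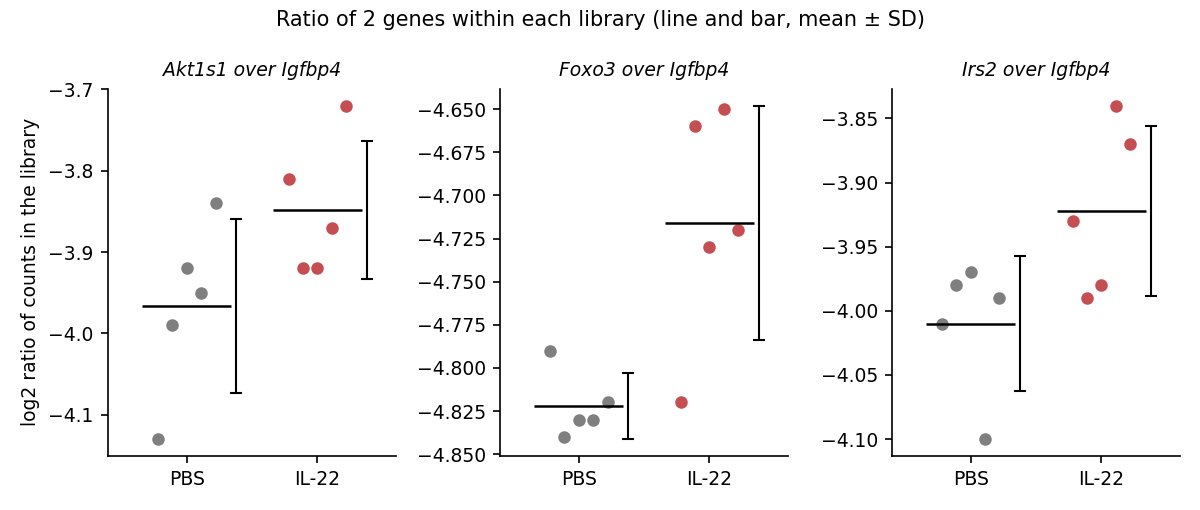
The log2 ratio of the counts of Akt1s1, Foxo3 or Irs2 to those of Igfbp4 in the same library (vertical axis), for 5 PBS and 5 IL-22 libraries, with the mean ± SD as line and bar. The mean ratio is higher with IL-22 by 0.12, 0.11 and 0.09, and in each panel at least 1 IL-22 library lies within the range of the PBS libraries.

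Once group means were removed, deviations of the 4 genes were compared over the 10 libraries. Pearson's r of log2 CPM was 0.716 for Akt1s1 and Igfbp4 (exact permutation within groups, two-sided, p = 0.0513, adjusted over 6 pairs 0.254), with Spearman's rho 0.721 (exact permutation p = 0.0365, adjusted 0.219). For Akt1s1 and Irs2, r was 0.664 (exact permutation p = 0.0846, adjusted 0.254) and rho was 0.564 (exact permutation p = 0.153, adjusted 0.458). The other 4 pairs had r between 0.234 and 0.555 and rho between 0.0182 and 0.333, with unadjusted exact permutation p-values of at least 0.135. Without the 2 libraries farthest from the median of Akt1s1, PBS libraries 1 and 2, r was 0.577 for Akt1s1 and Igfbp4 and 0.703 for Akt1s1 and Irs2. For Akt1s1 and Foxo3 it was -0.143, against 0.234 over all 10 libraries (exact permutation p = 0.614). Without PBS library 2 and IL-22 library 2, r for Foxo3 and Igfbp4 was 0.251, against 0.555 over all 10. No relation passed 0.05 after adjustment.

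Among all other listed genes, those with the most similar deviations over the 10 libraries were Dda1 (r = 0.923, rho = 0.939), Nphp4 (r = 0.902, rho = 0.927) and Dlk1 (r = 0.901, rho = 0.879) for Igfbp4. For Irs2 they were H2afx (r = 0.907, rho = 0.891), Mrpl52 (r = 0.894, rho = 0.758) and Mex3d (r = 0.804, rho = 0.782). Lrrc24 (r = 0.884, rho = 0.855), Psmd3 (r = 0.879, rho = 0.867) and Zfp579 (r = 0.807, rho = 0.624) were closest to Foxo3. Map3k10 (r = 0.937, rho = 0.939), C1qtnf4 (r = 0.92, rho = 0.903) and Mrpl52 (r = 0.907, rho = 0.879) were closest to Akt1s1. These are the highest of 229 values for each gene, and libraries share their depth and base composition across genes. The median r with the other listed genes was 0.369 for Igfbp4, 0.333 for Irs2, 0.371 for Foxo3 and 0.425 for Akt1s1.

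Of 112 genes on a list of the insulin, IGF, FOXO and mTOR pathway, 6 are in the table, the 4 above with Foxo6 and Lamtor4. No insulin or IGF gene, receptor, PI3-kinase subunit, AKT gene or listed FOXO target is in it, and their expression was not analysed here. In edgeR, 5 of the 6 were higher and 1 was lower below 0.01 over the listed genes (background 81.3% and 13.5%). Their median log2 fold change was 0.22. Foxo6, another FOXO factor, measured 19.4 to 24.4 CPM with PBS and 26.7 to 29.2 CPM with IL-22, without overlap. It had a log2 fold change of 0.38 (SE 0.0648, edgeR adjusted p = 0.000396 within the table and 0.0281 across 16308 genes), which ranked 40 of 230, where Akt1s1 ranked 93, Foxo3 98, Irs2 113 and Igfbp4 193. Lamtor4, a subunit of the Ragulator complex that brings mTORC1 to the lysosome in response to amino acids, was the lower gene, with 29.7 to 33.0 CPM with PBS and 25.9 to 28.8 CPM with IL-22, again without overlap. Its log2 fold change was -0.20 (SE 0.0533, edgeR adjusted p = 0.00365 within the table and 0.258 across 16308 genes). Without PBS library 1 the adjusted p-value of Lamtor4 over the listed genes was 0.0108.

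**Figure D3:**
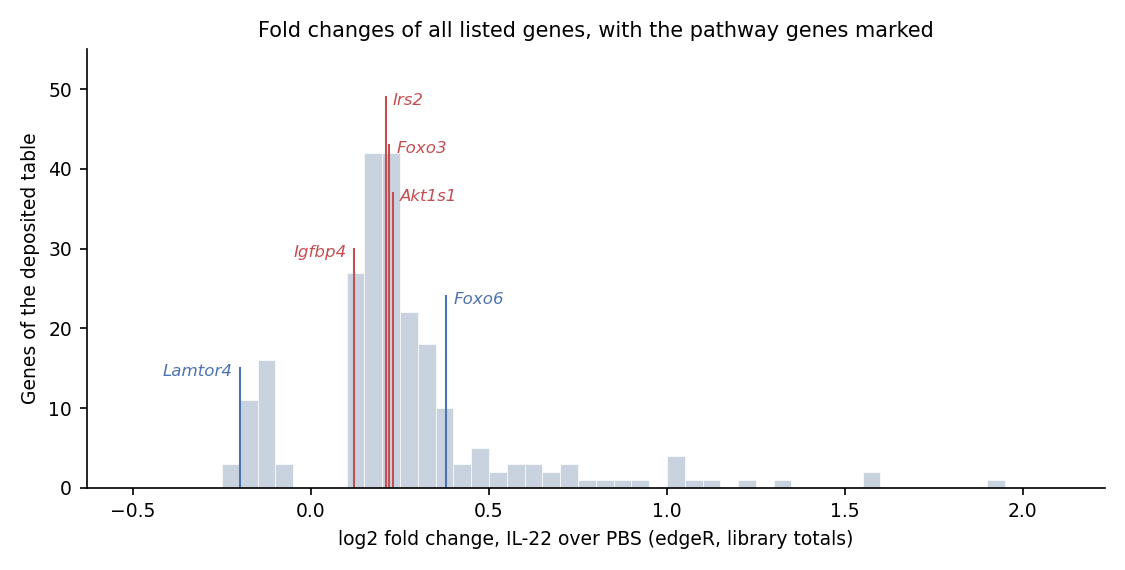
Histogram of the log2 fold changes (horizontal axis, IL-22 over PBS, edgeR with library totals) of all 230 listed genes, with vertical lines at the 4 genes (red) and at Foxo6 and Lamtor4 (blue). Irs2, Foxo3 and Akt1s1 lie at 0.21 to 0.23, beside the median of 0.21 over all listed genes, and Igfbp4 lies at 0.12. With TMM factors over the listed genes Igfbp4 lies at -0.086 in place of 0.12.

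The size of these changes, and for Igfbp4 the direction, depended on the scaling. Under TMM factors taken from the 230 rows, the median log2 fold change of all 230 genes went from 0.207 to 0.0025, and the 4 genes moved with it, to 0.0036 for Irs2, 0.017 for Foxo3 and 0.033 for Akt1s1, while Igfbp4 turned to -0.086. Foxo6 went to 0.171 (edgeR adjusted p = 0.0182) and Lamtor4 to -0.406 (edgeR adjusted p = 5.19e-05), and only the latter was still called. None of the 4 was then below 0.01, and 1 of them, Igfbp4, had an unadjusted p-value under 0.05. Of the 230 listed genes, the TMM fit called 18 higher and 33 lower. TMM assumes that most genes do not differ, which a table of genes selected for a difference does not meet. Factors taken from these rows bring their median near 0. A gene well below the median, such as Igfbp4 at 0.12, then turns negative by construction.

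Libraries also differed in the GC index, the slope of log2 CPM against transcript GC percentage over the listed genes other than those of the pathway. It was between -0.015 and 0.00651 per percent GC in the PBS libraries and between 0.00414 and 0.00912 in the IL-22 libraries, and the highest PBS value was that of library 5. Transcript GC content was 55.1% for Igfbp4, 56.6% for Irs2, 53.2% for Foxo3 and 60.7% for Akt1s1, against a median of 56.8% over the listed genes. With the index as covariate, the log2 fold changes were 0.048 for Igfbp4, 0.123 for Irs2, 0.142 for Foxo3 and 0.046 for Akt1s1, with edgeR adjusted p-values of 0.379, 0.165, 0.192 and 0.62. All 4 stayed above 0, but edgeR called 0 of the 4, and 0 had an unadjusted p-value under 0.05. The index is itself measured on genes chosen for their difference between the groups, and its part in the result cannot be told apart from that of the treatment.

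**Figure D4:**
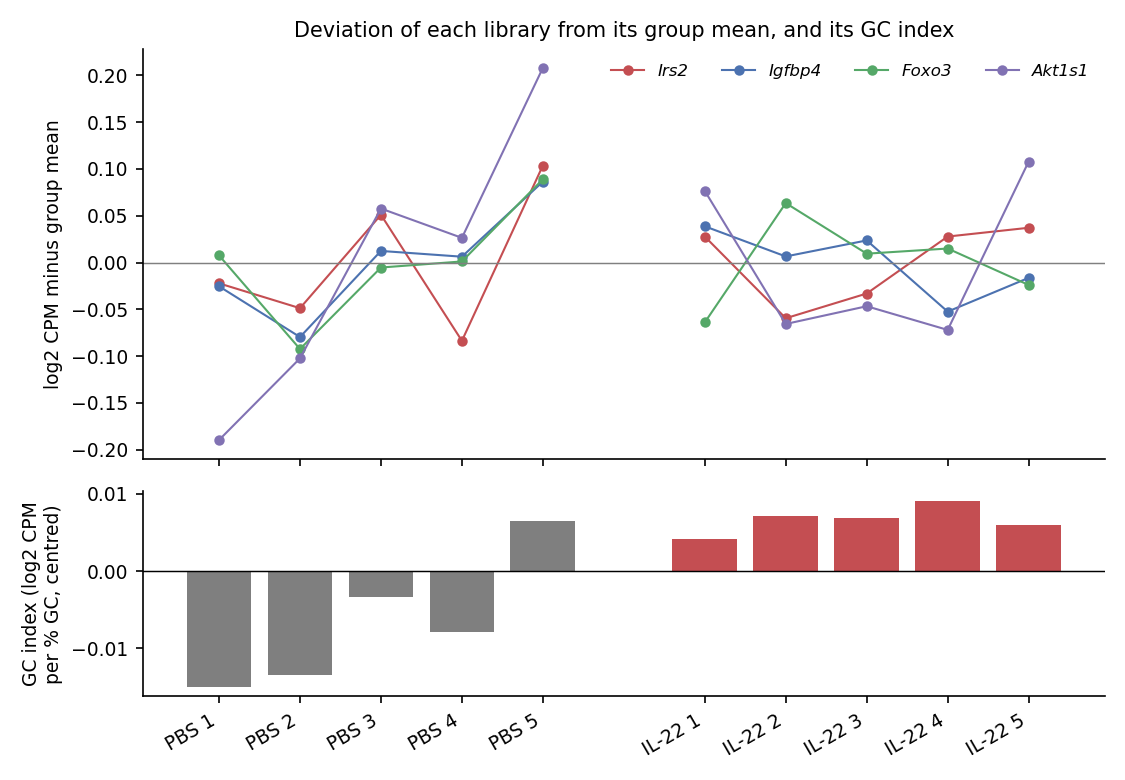
Upper panel, log2 CPM of Irs2, Igfbp4, Foxo3 and Akt1s1 minus the mean of the group, for each library. Lower panel, the centred GC index of each library (log2 CPM per percent GC, grey for PBS and red for IL-22). PBS library 5 has the highest deviation of all 4 genes within the PBS group and the highest GC index of that group, 0.00651.

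**Figure D5:**
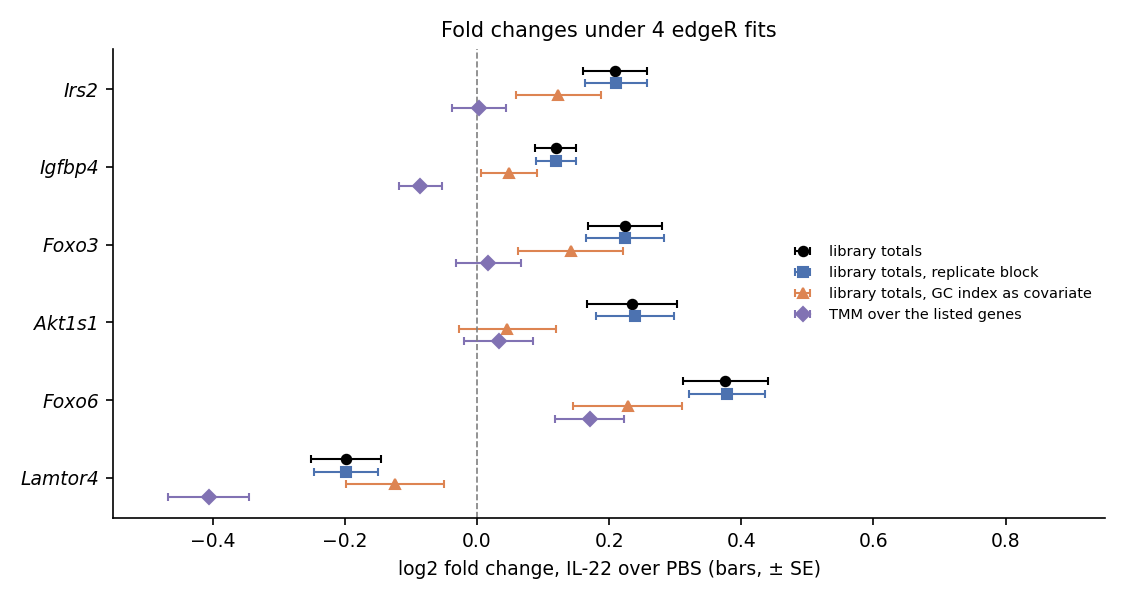
Log2 fold change (horizontal axis, IL-22 over PBS, bars are ± SE) of the 4 genes, Foxo6 and Lamtor4 in edgeR fits with library totals, with the replicate number as a block, with the GC index as covariate, and with TMM factors over the listed genes. The block leaves the values in place, the GC index brings Igfbp4 to 0.048 and Akt1s1 to 0.046, and TMM takes Igfbp4 below 0, to -0.086.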

How the data were processed

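The data are stranded mRNA libraries (Illumina TruSeq) of MIN6N8 cells, 5 with PBS and 5 with IL-22, grouped by the sample labels. The labels give a dose of 100 ng/mL, and the paper gives a lower dose and a larger number of samples, which it calls independent. The authors deposited raw counts per gene as whole numbers without normalization, and CPM, which the authors scaled to the reads counted in each library. In 99.7% of the deposited values CPM lies within 0.001 of count over library total, and the totals were recovered from that ratio. The table also holds the authors' log2 fold change, mean expression, p-value and FDR. Of these only the authors' p-value and FDR columns were used, to see that all 230 genes were selected below 0.05 and that 16308 were tested. The build is mm10 per the submitters' processing notes, and aligner and counter are not given in the sources used here.

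Counts were tested with edgeR 4.0.16 (quasi-likelihood, R 4.3.3) on the whole table with library totals and no further factors, after asking for 1 CPM in 5 libraries, which all 230 genes met. The threshold was FDR 0.01. Alternatives used limma 3.58.1, DESeq2 1.42.0, TMM, the replicate number as a block, the GC index (longest GENCODE transcript of each gene, 230 found, 10 by an older symbol) and each library left out in turn. Single genes, ratios and correlations had exact permutation tests over libraries in scipy 1.17.1 or numpy 2.4.6, and intervals hold the shifts that test does not refuse at 0.05. In simulated counts with 200 of 230 genes changed, the edgeR model recovered 0 of 200 at a log2 change of 0.12. It recovered 136 at 0.21 and 171 at 0.3, and called 0 unchanged genes. The SD of the simulated estimates was 1.11 to 1.2 times their mean SE. The members and lists were chosen with earlier results of these data known, as were the motifs. Named genes are the 4 members, listed pathway genes and the 3 genes most correlated with each member. Positions and exon lengths are from GENCODE on GRCm38 and promoters from RefSeq. Unlisted genes were not analysed.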

Additional observations from a re-analysis of the deposited data

How the results depend on the processing

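Over the listed genes, the 4 log2 fold changes kept their direction and stayed below 0.01 in all limma fits, in DESeq2 with library totals, with either filter and with the replicate block (0.21 for Irs2, 0.12 for Igfbp4, 0.224 for Foxo3 and 0.239 for Akt1s1), and 4 of 4 were called. The block also left Foxo6 and Lamtor4 called, and took the listed genes from 187 to 193 higher and from 31 to 32 lower. Labels do not say what a replicate number marks, so the numbers were not taken as pairs. Deviations of same-numbered libraries correlated at 0.263, 0.299, 0.296, -0.034 and -0.21 for replicates 1 to 5. The mean for each PBS library with the other-numbered IL-22 libraries was -0.0769, -0.0701, -0.0725, -0.00162 and 0.0615. Whether some numbers mark shared batches was not tested. Adjusted over 16308 genes, values were the same but calls were lost, with 0 of the 4, 0 of 6 pathway genes and 11 listed genes higher and 0 lower (33 lower had an unadjusted p-value under 0.05) by edgeR (0.209, 0.119, 0.224 and 0.235 in the order above). With that adjustment, DESeq2 (chosen after seeing the data, as was voom) gave 1 of 4, 2 higher and 0 lower of 6, and 55 higher and 4 lower of the listed genes (0.119, 0.223 and 0.234 for Igfbp4, Foxo3 and Akt1s1, not called). Voom gave 0 of 4, 0 of 6, 14 higher and 0 lower (0.21, 0.119, 0.22 and 0.241). DESeq2 with its own size factors gave 0.0139, -0.0755, 0.0269 and 0.0432, with 0 of 4, 1 pathway gene higher (Foxo6) and 1 lower (Lamtor4), and 30 listed genes higher and 33 lower. TMM gave 0.00364, -0.086, 0.0174 and 0.0327, with 0 of 4, 0 pathway genes higher and 1 lower (Lamtor4), and 18 listed genes higher and 33 lower. The GC index gave 0.123, 0.0483, 0.142 and 0.0458, with 0 of 4, 0 of 6 in either direction, 23 listed genes higher and 0 lower. With the replicate block and the index together, values were 0.132, 0.0249, 0.123 and 0.1, with 0 of 4, 0 of 6, 24 higher and 0 lower. The cause was not tested beyond what each scaling or covariate takes out by construction.

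Leaving out each library in turn left 3 to 4 of the 4 called, 0 to 1 pathway gene lower, and 127 to 196 listed genes higher and 15 to 32 lower. Akt1s1 ranged from 0.188 to 0.29 in edgeR and from 0.191 to 0.29 in the exact test, whose p-value adjusted over the 230 genes was no longer below 0.05 without PBS library 1 or IL-22 library 1 or 5. Ratio differences ranged from -0.0359 to 0.0456 for Akt1s1 and Foxo3, from -0.0136 to 0.0558 for Akt1s1 and Irs2, from 0.0774 (without PBS library 1) to 0.149 for Akt1s1 and Igfbp4, from -0.0157 to 0.0382 for Foxo3 and Irs2, from 0.088 to 0.131 for Foxo3 and Igfbp4, and from 0.0674 to 0.107 for Irs2 and Igfbp4. The last pair passed 0.05 without IL-22 library 2, and Foxo3 and Igfbp4 without IL-22 library 1 or 2 (adjusted p = 0.0476 each, exact permutation). Without the 2 libraries farthest from the median, r was -0.143 for Akt1s1 and Foxo3 and 0.251 for Foxo3 and Igfbp4. Of the 4 genes, Foxo3 had the fewest reads, with a counting error of 3.89% of the PBS mean.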
